A study of Mus musculus with 15 samples.

Results

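The piRNA pathway genes described here are 10 genes taken by name from the 38355 of the authors' deposited table: Piwil2, Piwil4, Tdrd1, Tdrd9, Tdrkh, Mov10l1, Ddx4, Mael, Asz1 and Pld6. All 10 were found there by their Ensembl identifiers. The RNA came from mouse embryonic stem cells in 2i medium, which holds such cells in naive pluripotency with LIF and inhibitors of MEK and GSK3, in 5 groups of 3 replicates. The wild types were E14TG2a (E14-WT) and a floxed line, Ezh2[fl/fl], labelled wild type (Ezh2-WT). Ezh2-KO (Ezh2[-/-]) and Suz12-KO (Suz12[-/-]) cells are without a subunit of PRC2, the Polycomb complex that methylates histone H3, and Ring1A+B-DKO (Ring1A[-/-];Ring1B[-/-]) lacks both ubiquitin ligases of PRC1. Ezh2-KO was compared with Ezh2-WT, and Suz12-KO, Ring1A+B-DKO and Ezh2-WT were each compared with E14-WT. The 3 comparisons with E14-WT share those libraries. How the alleles were deleted, whether a line is a single clone, and which parental lines Suz12-KO and Ring1A+B-DKO had are not stated in the labels, so genotype and line cannot be told apart in these 2 comparisons.

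PIWI-interacting RNAs (piRNAs) are small RNAs of the germline that guide PIWI proteins to the transcripts and genomic copies of transposons. Their precursors are cut and trimmed at the mitochondrial surface and in perinuclear granules, where Tudor-domain proteins bind methylated arginines of the PIWI proteins and RNA helicases remodel the RNA. In male fetal germ cells the pathway directs DNA methylation to transposons, and most of its genes are silent in somatic cells. Several germline genes of this kind are known in stem cells as targets of a variant PRC1 complex that contains PCGF6, in which MGA with MAX recognises E-box motifs and E2F6 recognises E2F motifs.

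All values are log2 fold changes that the authors obtained with DESeq2, with the named group in the numerator and its control in the denominator. In the 3 columns against E14-WT the signs were turned to give this, because genes without reads in E14-WT were negative as deposited. The verbs rise and fall are kept for genes with the authors' call. The table gives no value per sample, no standard error and no p-value, so the spread between replicates and the depth behind a value are unknown, and no difference between comparisons could be tested. Within bulk RNA, fewer expressing cells and less RNA per cell cannot be told apart. Of the deleted genes in the authors' deposited table, Ring1 fell in Ring1A+B-DKO (-2.03), while Rnf2 (the gene of Ring1B) stood at 0.17 there, Suz12 at -1.04 in Suz12-KO and Ezh2 at -0.14 in Ezh2-KO, all 3 without a call. The deleted exons are not named, and a value per gene also counts the exons that remain.

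Promoter windows of 9 of the 10 genes were found in RefSeq's sequences on GRCm38.p6, reaching from 250 bases before the annotated start to 50 after it. Those of all 6 called genes with a window are printed 5′ to 3′ on the strand of the gene, to show which of them hold the motifs searched and which do not, together with that of Ddx4, which was not called and is the only gene of the 9 to hold both motifs. Capitals mark exact matches to the E-box CACGTG and the E2F motif GCGGGAA, searched on both strands. The windows are chr19:56825959-56826258 (plus strand) for Tdrd1, chr1:166238695-166238994 (minus) for Mael, chr15:88982744-88983043 (plus) for Mov10l1, chr12:111971309-111971608 (plus) for Tdrd9, chr3:94412994-94413293 (plus) for Tdrkh, chr6:18109012-18109311 (minus) for Asz1 and chr13:112652261-112652560 (minus) for Ddx4. Where RefSeq holds several starts, the window whose start lies nearest the 5′ end of the GENCODE gene model was taken.
Tdrd1: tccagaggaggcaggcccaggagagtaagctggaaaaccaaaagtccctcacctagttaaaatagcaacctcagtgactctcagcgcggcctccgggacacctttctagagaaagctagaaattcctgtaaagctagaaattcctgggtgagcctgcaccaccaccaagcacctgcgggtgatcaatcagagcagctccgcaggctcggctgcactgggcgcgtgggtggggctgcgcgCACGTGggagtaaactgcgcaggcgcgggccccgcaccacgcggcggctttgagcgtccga
Mael: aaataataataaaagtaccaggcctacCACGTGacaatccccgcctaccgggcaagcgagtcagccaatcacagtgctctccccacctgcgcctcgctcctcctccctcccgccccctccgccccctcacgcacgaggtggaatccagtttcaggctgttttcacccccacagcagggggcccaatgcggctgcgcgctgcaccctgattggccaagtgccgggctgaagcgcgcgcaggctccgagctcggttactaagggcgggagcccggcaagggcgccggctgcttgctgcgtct
Mov10l1: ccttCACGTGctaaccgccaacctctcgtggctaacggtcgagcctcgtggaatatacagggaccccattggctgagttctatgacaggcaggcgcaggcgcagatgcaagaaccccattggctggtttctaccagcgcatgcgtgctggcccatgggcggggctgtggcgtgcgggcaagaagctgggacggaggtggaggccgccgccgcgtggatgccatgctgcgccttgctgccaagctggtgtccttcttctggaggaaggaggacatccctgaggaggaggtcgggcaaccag
Tdrd9: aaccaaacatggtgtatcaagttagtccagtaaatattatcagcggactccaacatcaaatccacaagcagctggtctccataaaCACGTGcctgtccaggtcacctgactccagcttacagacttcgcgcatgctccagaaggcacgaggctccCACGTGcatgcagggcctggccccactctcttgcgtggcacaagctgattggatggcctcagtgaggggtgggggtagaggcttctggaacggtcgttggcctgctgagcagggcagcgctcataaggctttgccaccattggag
Tdrkh: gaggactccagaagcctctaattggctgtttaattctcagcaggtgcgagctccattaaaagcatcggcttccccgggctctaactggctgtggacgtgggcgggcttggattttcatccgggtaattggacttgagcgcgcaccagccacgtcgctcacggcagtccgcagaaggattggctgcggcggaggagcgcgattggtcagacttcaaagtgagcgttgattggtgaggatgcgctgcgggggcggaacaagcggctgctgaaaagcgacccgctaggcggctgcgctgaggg
Asz1: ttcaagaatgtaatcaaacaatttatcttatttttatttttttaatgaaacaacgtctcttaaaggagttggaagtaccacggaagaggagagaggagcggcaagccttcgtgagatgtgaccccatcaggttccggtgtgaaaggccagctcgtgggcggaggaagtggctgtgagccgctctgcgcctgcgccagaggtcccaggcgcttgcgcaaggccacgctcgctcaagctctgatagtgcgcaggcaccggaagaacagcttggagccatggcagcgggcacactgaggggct
Ddx4: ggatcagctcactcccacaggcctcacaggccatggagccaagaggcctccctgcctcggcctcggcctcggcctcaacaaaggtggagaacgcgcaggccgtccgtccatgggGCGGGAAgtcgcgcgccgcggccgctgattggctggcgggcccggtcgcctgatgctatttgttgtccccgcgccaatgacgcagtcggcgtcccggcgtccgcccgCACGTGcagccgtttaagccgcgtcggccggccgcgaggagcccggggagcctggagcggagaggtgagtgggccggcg

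Of the 4 contrasts, the authors called genes of this group only in that of Ring1A+B-DKO. In Ring1A+B-DKO 7 of 10 rose and 0 fell, beside 2.38% of all 19693 genes with a value called as increases and 0.620% as decreases in the authors' deposited table (3.00% in all). The median of the 10 was 2.11, beside 0.07 over all genes, and all 10 stood above 0, as did 55.4% of all genes. By size alone 8 of the 10 stood at 1 or above, as did 6.73% of all genes. The 10 lie on 10 different chromosomes. The authors called 0 of the genes in Ezh2-KO, Suz12-KO or Ezh2-WT, beside 0.177%, 0.200% and 0.607% of all genes, so 0 calls among 9 or 10 genes is also what these shares would give. The genes were chosen with earlier results of these data known, and no test of the group is given.

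**Figure D1:**
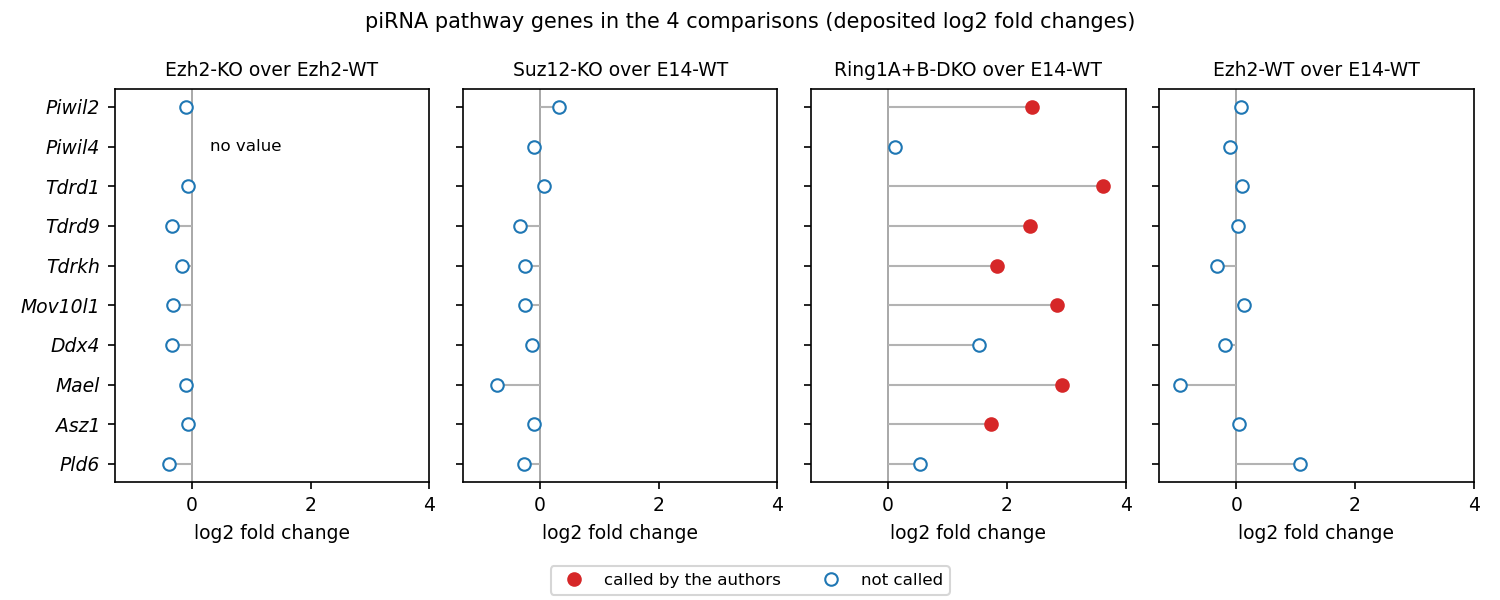
Deposited DESeq2 log2 fold change (horizontal axis) of each of the 10 piRNA pathway genes (rows) in the 4 comparisons, with filled red points for genes the authors called and open blue points for the others; no error is available. The 7 called genes are all in Ring1A+B-DKO, between 1.74 and 3.62, and Piwil4 has no value in Ezh2-KO.

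Of the PIWI genes, Piwil2 was called in Ring1A+B-DKO and Piwil4 was not. Piwil2 (ENSMUSG00000033644, chromosome 14, 70372477 to 70429383 in GRCm38, minus strand) encodes MILI, the slicer that starts the piRNA amplification cycle. It rose in Ring1A+B-DKO by 2.43, a 5.39-fold difference, and held rank 61 of 19693 genes in the authors' deposited table. Piwil2 stood at -0.10 in Ezh2-KO, 0.32 in Suz12-KO and 0.08 in Ezh2-WT, none of them called. Piwil4 (ENSMUSG00000036912, chromosome 9, 14696230 to 14740733, minus strand) encodes MIWI2, the nuclear partner that directs DNA methylation. It stood at 0.11 in Ring1A+B-DKO without a call, with 53.0% of all genes lower. Its values in Suz12-KO (-0.11) and Ezh2-WT (-0.11) are the same to the last digit as those of 326 and 312 other genes in the authors' deposited table, as identical low counts would give. No value is given for Piwil4 in Ezh2-KO, which was read as no reads in either group of that comparison. Without a standard error its value in Ring1A+B-DKO, shared with 8 other genes, does not show that the gene is unaffected.

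Among the Tudor proteins Tdrd1 had the largest value of the 10. Tdrd1 (ENSMUSG00000025081, chromosome 19, 56826209 to 56870012, plus strand) binds MILI and holds it in the granules where piRNAs mature. It rose in Ring1A+B-DKO by 3.62, a fitted difference of 12.3-fold, and was rank 7 of the 469 increases in the authors' deposited table. In the other comparisons it was scarcely read. Its value in Suz12-KO (0.07) is shared with 432 other genes, and of these 433 genes 359 were shown by missing values elsewhere to have no reads in E14-WT, while 0 were shown to have any. The same held in Ezh2-WT (0.09), where 402 of 462 genes with that value were shown to have no reads in E14-WT and 0 to have any. Tdrd1 was thus probably without reads in E14-WT, in which case its increase could have no other sign and its fold is neither an estimate of a ratio nor a bound. In Ezh2-KO it stood at -0.07, a value shared with 543 other genes.

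Tdrd9 (ENSMUSG00000054003, chromosome 12, 111971559 to 112068854, plus strand), a Tudor protein with a helicase domain that works with MIWI2, rose in Ring1A+B-DKO by 2.39 or 5.24-fold. It stood at -0.33 in both Ezh2-KO and Suz12-KO and at 0.04 in Ezh2-WT in the authors' deposited table, without a call. Tdrkh (ENSMUSG00000041912, chromosome 3, 94413273 to 94434668, plus strand), the mitochondrial Tudor protein needed for trimming piRNA precursors, rose by 1.83 or 3.54-fold in Ring1A+B-DKO. It stood at -0.16, -0.25 and -0.32 in Ezh2-KO, Suz12-KO and Ezh2-WT. All 3 Tudor genes of the group were therefore called in Ring1A+B-DKO and in none of the other comparisons, with Tdrkh the least increased of them. Tdrkh overlaps the antisense gene Oaz3, with which it shares a transcribed stretch, and Tdrd9 overlaps the antisense gene Rd3l. Both Oaz3 and Rd3l are without a value in all 4 comparisons of the authors' deposited table.

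The helicases divided at the call. Mov10l1 (ENSMUSG00000015365, chromosome 15, 88982909 to 89055152, plus strand), which feeds piRNA precursors into processing, rose in Ring1A+B-DKO by 2.85 or 7.22-fold in the authors' deposited table. It stood at -0.32, -0.26 and 0.13 in Ezh2-KO, Suz12-KO and Ezh2-WT. Ddx4 (ENSMUSG00000021758, chromosome 13, 112598333 to 112652475, minus strand), the mouse Vasa homologue and a common marker of germ cells, stood at 1.52 in Ring1A+B-DKO without a call. That value is above those of 97.7% of all genes, and of the 445 genes at or above it, 385 were called in the authors' deposited table and 60, Ddx4 among them, were not. Ddx4 stood at -0.33, -0.14 and -0.19 in Ezh2-KO, Suz12-KO and Ezh2-WT. No call on Ddx4 does not show that it behaved unlike Mov10l1, since neither value has an error.

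Mael (ENSMUSG00000040629, chromosome 1, 166201201 to 166238747, minus strand) encodes Maelstrom, a granule protein needed for transposon silencing in the mouse testis. It rose in Ring1A+B-DKO by 2.93 or 7.65-fold, rank 17 of 469 increases in the authors' deposited table. Mael also had the lowest values of the 10 in the other contrasts with E14-WT, at -0.72 in Suz12-KO and -0.95 in Ezh2-WT, with only 2.04% and 1.23% of all genes lower. Neither was called, and both use the E14-WT libraries, so they are not independent. In Ezh2-KO, which does not use those libraries, it stood at -0.09, a value shared with 352 other genes, as for a gene with few reads. Negative values against E14-WT show that E14-WT had Mael reads.

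Of the mitochondrial proteins, Asz1 was called in Ring1A+B-DKO and Pld6 was not. Asz1 (ENSMUSG00000010796, chromosome 6, 18050964 to 18109061, minus strand), an ankyrin-repeat scaffold of the piRNA machinery on the outer membrane, rose by 1.74 or 3.34-fold in Ring1A+B-DKO, the smallest of the 7 increases and rank 275 of 469 in the authors' deposited table. It stood at -0.07, -0.10 and 0.05 in Ezh2-KO, Suz12-KO and Ezh2-WT, values shared with 27, 124 and 9 other genes. Pld6 (ENSMUSG00000043648, chromosome 11, 59783897 to 59787645, minus strand), the nuclease homologous to Drosophila Zucchini, stood at 0.53 in Ring1A+B-DKO without a call and with 82.5% of all genes lower. Its largest value was between the wild-type lines, at 1.07 in Ezh2-WT, where 99.0% of genes were lower and the authors made no call; of all genes 1.29% stood at 1 or above there. Pld6 stood at -0.28 in Suz12-KO and, against Ezh2-WT, at -0.39 in Ezh2-KO, its lowest. For Pld6 the difference between wild-type lines was thus larger than any of the knockout values.

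**Figure D2:**
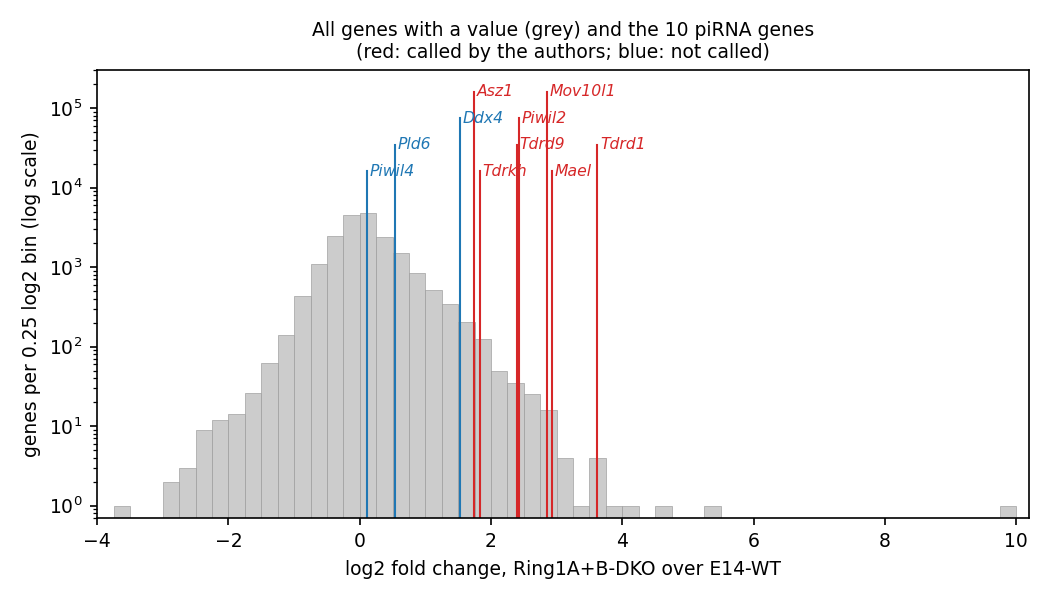
Number of genes per 0.25 log2 bin (vertical log axis) of the log2 fold change in Ring1A+B-DKO over E14-WT for all 19693 genes with a value (grey), with a line at each of the 10 piRNA pathway genes, red where called by the authors and blue where not. The 7 called genes lie in the right tail, Ddx4 at its edge, and Piwil4 in the centre of the distribution.

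In both PRC2 knockouts the values were small and mostly negative. All 9 genes with a value in Ezh2-KO stood below 0, between -0.39 and -0.07 with a median of -0.16, beside a median of -0.01 over all genes and 47.8% of all genes above 0 in the authors' deposited table. In Suz12-KO 8 of 10 stood below 0, between -0.72 and 0.32, with a median of -0.19 beside -0.03 for all genes, of which 46.4% stood above 0. Without errors these displacements cannot be set against the spread between replicates, and several may rest on few reads. In Ezh2-KO 5 of 9 values, and in Suz12-KO 4 of 10, are shared with other genes, beside 31.4% and 31.3% of all genes. In Ezh2-WT 6 stood above and 4 below 0, beside 48.2% of all genes above 0, with a median of 0.04 and a range from -0.95 to 1.07. In Ring1A+B-DKO 9 of the 10 genes had a value of their own, while 30.6% of all genes shared theirs.

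Which genes had reads at all in E14-WT could be read from signs and missing values. For 8 of the 10 a negative value in at least 1 comparison with E14-WT shows reads there. The exceptions are Tdrd1, described above, and Piwil2, for which the signs leave it unresolved. Of the 8, 5 rose in Ring1A+B-DKO by the authors' deposited table (Tdrd9, Tdrkh, Mael, Mov10l1 and Asz1), and the median of all 8 was 1.78. Ezh2-WT had reads of all but Piwil4, so 9 of the 10 transcripts were present, at levels that cannot be given here, in a line labelled wild type.

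The promoters of the group were rich in CpG and often held the E-box. Of the 9 windows found, 7 had a CpG observed over expected ratio of at least 0.6, a usual threshold for CpG islands, and the median was 0.733, beside 65.8% of windows and a median of 0.729 for the 12624 genes that had both a window and a value in Ring1A+B-DKO. The CpG content of the group was thus close to that of the genes measured. The lowest ratios were those of Tdrd9 (0.43), which rose, and Piwil4 (0.543), and the highest was that of Ddx4 (0.978), which was not called. The exact E-box CACGTG was in 6 of 9 windows, or 66.7%, beside 9.85% of those 12624 genes. It was in 13.4% of the 336 windows of called increases outside the group. Among other genes of the piRNA pathway 3 of 12 windows held it, or 25%. Tdrd1 held it 11 bases before the start and Ddx4 29 bases before it. In Tdrd9 it occurred 165 and 95 bases upstream, in Pld6 33, in Mael 223 and in Mov10l1 246.

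Presence of the E-box did not divide the called from the uncalled genes. It was in 4 of the 6 called genes with a window (Tdrd1, Tdrd9, Mael and Mov10l1) and in 2 of the 3 uncalled ones (Ddx4 and Pld6), while the called genes Tdrkh and Asz1 lacked it, as did Piwil4. The E2F motif GCGGGAA was in Ddx4 alone of the 9, 136 bases before the start, beside 8.07% of the 12624 genes. A T-box motif searched as AGGTGTGA was in 0 of 9 windows and in 0.951% of those genes. CCAAT, the motif of NF-Y, was in 6 of 9, beside 38.5%, with 5 matches in Tdrkh. Matches of different motifs did not overlap in these windows. An exact match is a description of these letters and not a bound site, and motifs of these lengths outside the windows were not searched.

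**Figure D3:**
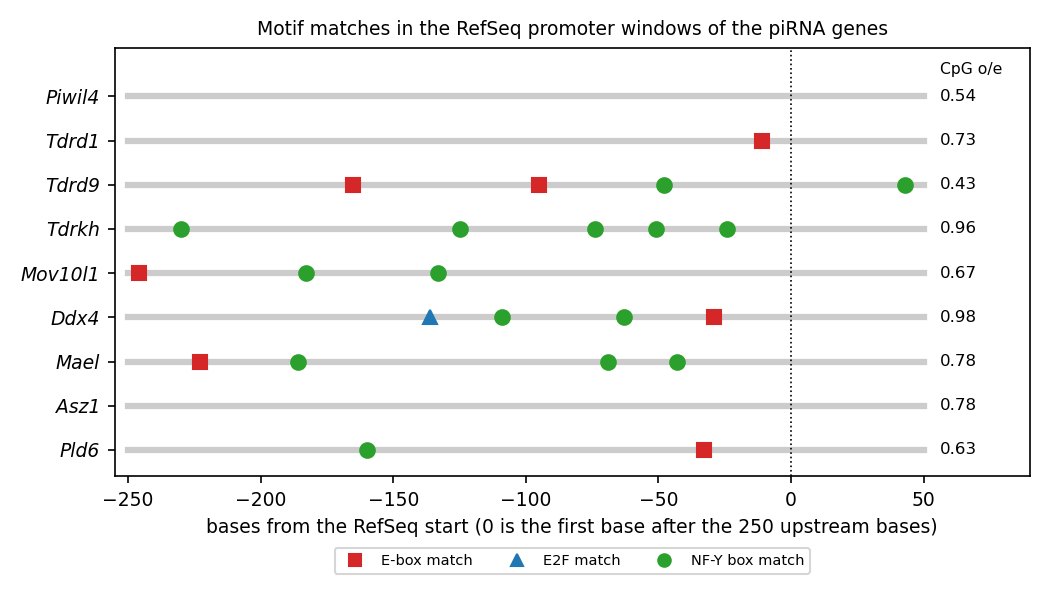
Exact matches to the E-box (red squares), E2F (blue triangle) and NF-Y (green circles) motifs in the RefSeq promoter windows of 9 piRNA pathway genes, by distance in bases from the annotated start (horizontal axis), with the CpG observed over expected ratio (CpG o/e) at the right. The E-box occurs in 6 of 9 windows at distances from 246 to 11 bases upstream, and Piwil4 and Asz1 hold none of the motifs.

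Genes near the 10 were read for comparison. For each of the 10 genes the nearest protein-coding gene with a value and without overlap was taken on either side. Genes without a value were passed over, so a neighbour need not be adjacent. The gaps reached 257 kb, from Asz1 to Cttnbp2. Of these 20 neighbours 0 rose and 1 fell in Ring1A+B-DKO by the authors' deposited table, beside 2.38% and 0.620% of all genes. By size alone Fut4 (1.52), Vwa2 (1.33), Slc38a9 (1.145) and Ildr2 (1.03) stood at 1 or above, none of them called, as did 6.73% of all genes. Of the 20, 13 stood above 0, beside 55.4% of all genes. The neighbour that fell was Il6st, the cytokine co-receptor gene, at -1.003 and 88.2 kb from Ddx4. The median of the neighbours was 0.19, and 18 of 20 stood below the piRNA gene they flank. Both exceptions were neighbours of Piwil4 (Fut4 at 1.52 and Amotl1 at 0.68). That count follows mostly from the high values of the piRNA genes, chosen with earlier results known, and says little about the neighbours. Beside Tdrd1, Ccdc186 lies 4.02 kb away and stood at 0.13, and Vwa2 lies 4.24 kb away and stood at 1.33 without a call. Mov10l1 has Panx2 at 4.58 kb, which stood at 0.44, and Tdrkh has Mrpl9 at 8.65 kb, which stood at -0.57. Mael has Ildr2 at 15.4 kb, at 1.03 without a call. These neighbours were taken by position, and those named here were chosen after their values were seen.

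**Figure D4:**
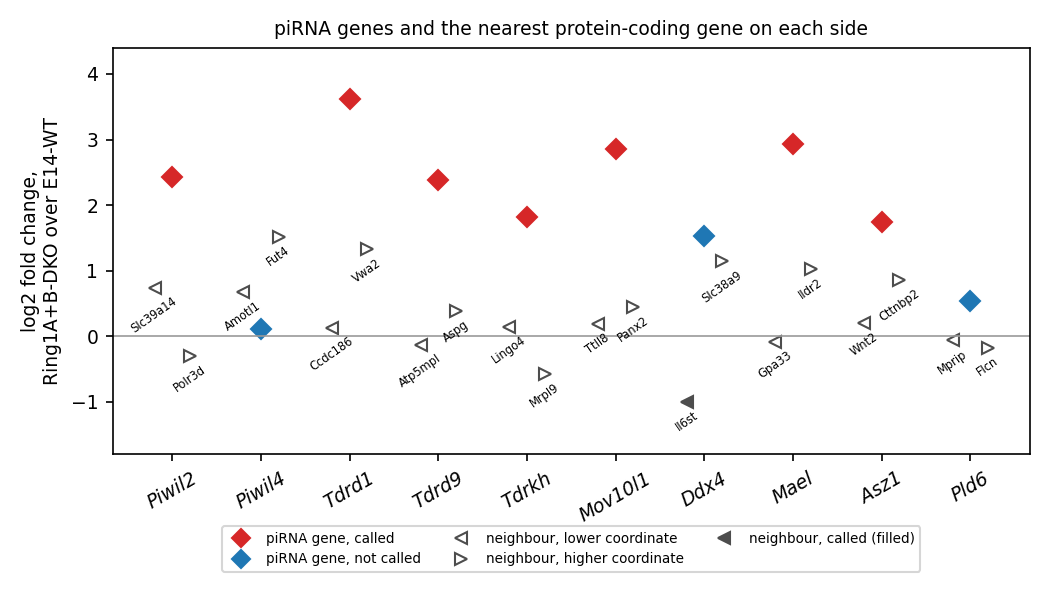
Log2 fold change in Ring1A+B-DKO over E14-WT (vertical axis) of each piRNA pathway gene (diamonds, red where called by the authors, blue where not) and of its nearest protein-coding neighbours with a value at lower and higher coordinates (triangles, filled where called). Of the 20 neighbours 18 stand below the gene they flank, which follows mostly from the high values of the piRNA pathway genes. Il6st is the only neighbour called.

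Genes whose profile over the 4 comparisons was most like the median of the group were sought among 13444 other genes with all 4 values and a symbol that is not a gene model. By Euclidean distance the nearest was Mei1, a gene needed for meiotic recombination, at 0.197 log2 units. It stood at 2.18 in Ring1A+B-DKO and at -0.08, -0.03 and 0.02 in Ezh2-KO, Suz12-KO and Ezh2-WT in the authors' deposited table. Kbtbd11, the transcription factor gene Ets1, the lysosomal sulfatase gene Arsb and the matrilin gene Matn4 followed at 0.199, 0.203, 0.206 and 0.208. All 5 rose in Ring1A+B-DKO, which the distance itself requires of them in size though not in call.

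Of 20 other genes of the piRNA pathway fewer were called. In Ring1A+B-DKO 18 had a value, and 1 rose and 0 fell in the authors' deposited table, beside 2.38% and 0.620% of all genes. Their median was 0.36, with 15 above 0, as were 55.4% of all genes. By size alone 5 of the 18 stood at 1 or above, as did 6.73% of all genes. The gene that rose was Gpat2, a mitochondrial acyltransferase homologue that associates with MILI, at 1.16. The largest uncalled values were those of Btbd18, a regulator of piRNA precursor transcription, at 1.61 and of Tdrd7, a Tudor scaffold of germ granules, at 1.41. Between the wild-type lines Fkbp6, a co-chaperone of piRNA biogenesis, was higher in Ezh2-WT at 1.18, and Dnmt3l, the cofactor of de novo DNA methylation, was lower at -1.56, both called. In Ezh2-KO Fkbp6 stood at -1.02 and Dnmt3l at 0.82, opposite in sign to the wild-type contrast, with which it shares the Ezh2-WT libraries, and neither was called. In Ezh2-KO 0 of 17 and in Suz12-KO 0 of 16 genes were called, beside 0.177% and 0.200% of all genes, as these shares would also give.

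Genes of the PCGF6 complex and factors of DNA methylation and heterochromatin were examined beside the group. Of 15 subunits and partners of the PCGF6 complex, only Ring1 was called in Ring1A+B-DKO, where it is deleted, and the list median was -0.13. Of all genes 3.00% were called in that comparison. E2f6, the E2F family repressor of germline genes, stood at 1.05 and Yaf2, a RING1-binding subunit, at 0.98, both without a call in the authors' deposited table. Of 16 factors of DNA methylation and heterochromatin, 1 fell, beside 0.620% of all genes. It was Uhrf1, which brings the maintenance methyltransferase to replicated DNA, at -1.01. Tet2 stood at -1.02 and the maintenance enzyme gene Dnmt1 at -0.88, uncalled. The list median was -0.21, with 13 of 16 below 0, while 55.4% of all genes stood above 0. The list also holds Tet1, Tet2 and Tet3, which act to remove DNA methylation, so its median is no measure of silencing. Between the wild-type lines the list stood as low, with a median of -0.24 in Ezh2-WT and 12 of 16 below 0. Its median was -0.11 in Suz12-KO, with 11 of 16 below 0, and -0.04 in Ezh2-KO, with 10 of 16 below 0. Both lists had 0 calls in Ezh2-KO, Suz12-KO and Ezh2-WT, beside 0.177%, 0.200% and 0.607% of all genes, as these shares would also give. What part these levels have in the increases was not tested.

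Some markers of other cell types were also called in Ring1A+B-DKO. There 2.38% of all genes with a value were called as increases and 0.620% as decreases. Of 12 primordial germ cell and spermatogonia markers 11 had a value in Ring1A+B-DKO, with a median of -0.14. The receptor gene Ret rose by 1.76 and the transcription factor gene Etv5 fell to -2.06 in the authors' deposited table, while Ifitm3 stood at -1.12 and Zbtb16 at 0.93 without a call. Nanos2, singled out after its values were seen, had no value in any comparison, which was read as no reads in any of the 5 groups. Of 8 primitive endoderm markers 4 rose (Gata6 by 2.69, Gata4 by 2.39, Col4a1 by 2.00 and Dab2 by 1.87), the list ranged from -0.42 to 2.69, and Sox7 and Foxa2 stood at 0.96 and 0.70. Of 8 feeder fibroblast markers 7 had a value and 2 rose, Thy1 by 1.66 and Col5a1 by 1.33, beside Col1a1 at 0.94 and Fn1 at -0.56 and with Postn, also singled out after its values were seen, without a value in any comparison. Their part in the increases of the piRNA genes was not tested.

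The stem cell identity of the samples can be checked only through differences, since no levels are given. Of 8 embryonic stem cell markers, 1 rose in Ring1A+B-DKO by the authors' deposited table, Klf4 at 1.04, and 0 fell, with a median of -0.13. Of all genes 2.38% rose and 0.620% fell in that comparison. Zfp42 stood at 0.73 and Tfcp2l1 at -0.62 there, and Nanog was lower in Ezh2-WT, relative to E14-WT, at -1.15. Of the 9 markers of the 2-cell-like state 8 were in the table and 0 were called in any comparison, though only 1 had a value in Ezh2-KO. In Ring1A+B-DKO they ranged from -0.03 to 0.98 with a median of 0.30, and 6 of 8 stood above 0. Tcstv1 and Usp17lc had the largest values there, at 0.98 and 0.88. All 8 stood below 0 in Suz12-KO and in Ezh2-WT, with medians of -0.65 and -0.72. Of all genes 46.4% and 48.2% stood above 0 in these comparisons.

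**Figure D5:**
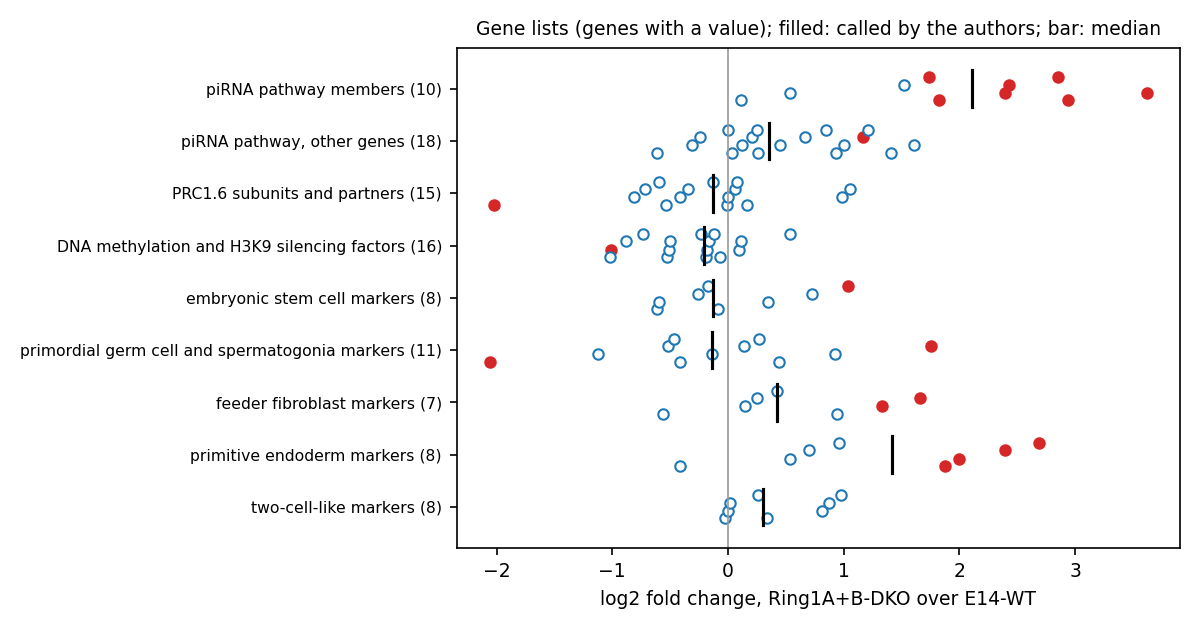
Log2 fold change in Ring1A+B-DKO over E14-WT (horizontal axis) of every gene with a value in the 10 piRNA pathway genes and 8 other lists (rows, number of genes in brackets), filled red where called by the authors and open blue where not, with a black bar at each list's median. The median of the 10 piRNA pathway genes is 2.11, beside 0.36 for the other genes of the pathway and 1.42 for primitive endoderm markers.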

How the data were processed

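The authors deposited 1 table with a DESeq2 log2 fold change and a true or false call per gene for 4 comparisons, per the file headers; a fold change is a fitted ratio between group levels. Reads were aligned with TopHat and counted with featureCounts on GRCm38, per the submitters' processing notes. Neither settings nor strand use nor the call's criteria are stated in the labels, and the smallest called absolute log2 fold change was between 1.00 and 1.06. Counts per sample are not in this table, so the depth per sample is unknown and no model was fitted.

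A missing value was read as no reads in both groups. Genes with reads in the named group alone were then positive in Ezh2-KO (922 of 922) and negative in the columns of Suz12-KO (1064 of 1064), Ring1A+B-DKO (2259 of 2259) and Ezh2-WT (1170 of 1170). The signs of these 3 columns were turned. The median absolute value of the 2259 genes was 0.203, so values of genes with few reads appear drawn towards 0. Equal values were matched exactly.

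Symbols and coordinates are those of GENCODE mouse release 21, which matched 36602 of 38355 identifiers (95.4%). Copies were sought with blastn 2.17.0 (95% identity, at least 100 bases and 50% of the shorter transcript), and Tdrkh with Oaz3 was the only pair found for the 10 genes. Promoters are RefSeq's, with 1 window per gene. Python 3.11.15, numpy 2.4.6, pandas 2.3.3 and matplotlib 3.10.9 were used.

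The 10 genes and the lists were chosen with earlier results of these data known. Named genes are the 10, the deleted genes and the 5 nearest profiles. In each list they are the called genes and the 2 uncalled with the largest absolute value in Ring1A+B-DKO. Alternatives were size thresholds, the sign in the headers, centring, means, genes without overlaps and genes with values of their own.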

Additional observations from a re-analysis of the deposited data

How the results depend on the processing

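No paired analysis was possible because the table holds no values per sample, and leaving out replicates could not be run for the same reason. In Ring1A+B-DKO the 7 increases became 0 increases and 7 decreases with the sign in the column header. They became 3 (Tdrd1, Mael and Asz1) among the 5 genes that overlap no other annotated gene. They became 5 when overlaps with small RNA genes were allowed, which leaves out only the 3 genes with an antisense or pseudogene overlap. That alternative was chosen after seeing the data. The median of 2.11 became 2.00 as a mean, 2.39 over genes whose value no other gene shares, and 1.78 over the 8 genes shown to have reads in E14-WT, also chosen after seeing the data. Over genes with a value of their own the median in Ezh2-KO was -0.33. In Ezh2-WT the median of 0.04 became -0.012 as a mean and -0.054 over genes with a value of their own, so its sign is not settled. By size alone 1 gene in Suz12-KO was lower at a threshold of 0.5 (Mael), and in Ezh2-WT 1 was higher at 0.5 and at 1 (Pld6) and 1 lower at 0.5 (Mael). The other 44 alternatives for counts and medians stayed within 1.5 times the count or 0.1 of the median. Many of them could not move. In Ezh2-KO, Suz12-KO and Ezh2-WT 0 genes were called, so settings that select among called genes or turn their sign could only give 0. The same holds for selections among the 0 decreases in Ring1A+B-DKO.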
